A study of Mus musculus with 17 samples.

Results

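Whole blood of mice that received a total-body X-ray dose of 1.0 Gy was compared with whole blood of unirradiated mice, across all genes that the arrays named. All mice were female C57BL/6JJcl animals, an inbred laboratory strain, 8 weeks old, and blood was taken 24 h after exposure. The compared samples are the 4 arrays labelled 1.0 Gy and the 5 control arrays labelled 0 Gy, 9 of the 17 arrays of the series. The other arrays are 4 at 0.5 Gy and 4 at 3.0 Gy, and they enter the fit for the estimate of the spread and for the comparisons between doses. Each array held the RNA of 1 mouse, and the labels name the samples of a group as biological replicates. The labels name no genetic change and no agent other than the X-rays in any group. Of 45101 probe sets, 34945 carried 1 gene symbol and stood for 18193 genes. A gene was represented by its brightest probe set and was tested when that probe set lay above the median of its array in at least 4 arrays, which left 12696 genes. Levels are log2 values, so that a log2 change of 1 is a doubling. Some probe sets carry a suffix that marks probes shared by several transcripts, which can be of different genes, and the values of Aldoa, Atp5e, Bcl2, C1qb, Eif3m, Fermt3, Gabarapl1, Gbp2, H2-Ab1, Hbb-b2, Mcl1, Mrvi1, Rpl22, Rps14, Slc25a39, Slc4a1, Snrpg, Tpi1, Tspan33, Ube2s, Urod and Xrcc3, which rest on such probe sets, are uncertain in that respect. Where a dimmer probe set of a gene is given too, its p is adjusted over the 24366 probe sets that passed the same filter.

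Blood cells differ widely in how they meet radiation. Lymphocytes die within hours through the p53 pathway, in which DNA damage stabilises the transcription factor p53 and p53 switches on genes of cell-cycle arrest, repair and death. Neutrophils, red cells and platelets no longer divide. Platelets carry messenger RNA handed down from their parent cell, the megakaryocyte, and young red cells, the reticulocytes, carry a declining stock of RNA from the bone marrow. Interferon-induced genes are switched on when type I or type II interferon signals through JAK kinases and STAT factors. In whole blood, a larger number of cells of a type and more RNA per cell of that type cannot be told apart.

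Defining transcripts of blood cells lay high on the control arrays. The red cell genes Alas2 and Slc4a1, the platelet genes Pf4, Ppbp and Itga2b, the B cell genes Cd79a and Ms4a1, the T cell genes Cd3d and Cd3e and the neutrophil genes S100a8 and S100a9 were all above their array's median in 17 of 17 arrays. The progenitor genes Kit and Cd34 and the fibroblast gene Col3a1 lay below the filter, as did the probe set used for the globin gene Hba-a1. Over all tested genes the median log2 change at 1.0 Gy was -0.04 and the median standard error 0.14. Arrays of a group resembled each other, with a median r across probe sets of 0.986 within the controls, 0.987 within 1.0 Gy and 0.973 between them. Probe sets are not independent replicates.

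One array measure moved with the group. The control probe sets for 18S ribosomal RNA, which the labelling should largely pass over, had a mean log2 level of 10.44, 9.82, 10.54, 10.62 and 11.18 in the 5 controls. At 1.0 Gy they read 12.89, 13.33, 13.52 and 13.39, so every irradiated array lay above every control. The difference was 2.76 (two-sided exact permutation p = 0.00794, the smallest that 126 regroupings allow, adjusted p = 0.0476 over 6 array measures). The differences in array median, 75th percentile, 3' to 5' ratio of Actb and Gapdh and the spiked control BioB had exact permutation p between 0.0794 and 0.976. With the 18S level as a covariate 606 genes were called instead of 2195. The median log2 change of the 2195 genes then had a size of 0.96 in place of 0.70, and the median standard error was 0.39 in place of 0.15. At 3.0 Gy the 18S probe sets lay between 10.50 and 10.84, inside the control range. Of the 171 called genes whose values are given, 78 kept their call with the covariate and 93 lost it. The part of the 18S level in the results was not tested.

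**Figure D1:**
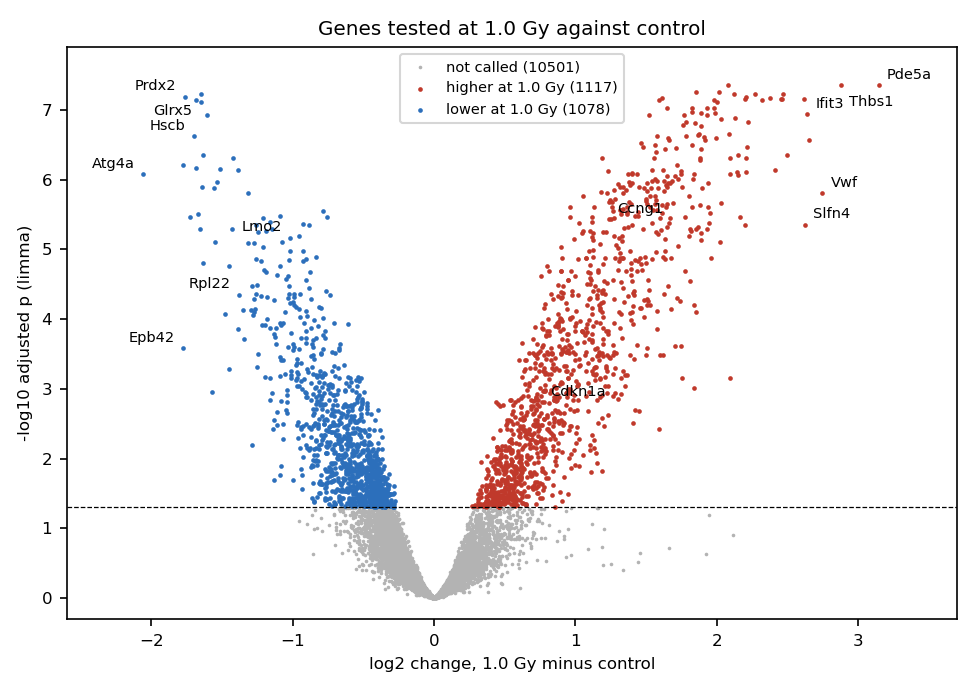
Each point is 1 of 12696 genes, with the log2 change at 1.0 Gy against control on the horizontal axis and the negative log10 of the adjusted limma p on the vertical axis; the dashed line marks an adjusted p of 0.05. The 1117 higher genes reach further from 0 than the 1078 lower genes, up to Pde5a at 3.15, while Atg4a reaches -2.06 on the other side.

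The main comparison asked what a dose of 1.0 Gy changed in blood after 24 h. The 12 largest rises included platelet genes and interferon-induced genes, and the 12 largest falls included genes of late red cell maturation and of iron-sulfur cluster assembly. Genes of protein synthesis fell in larger numbers, by smaller amounts. At an adjusted p under 0.05 in limma, 2195 of 12696 genes were called (17.3%), 1117 higher (8.8%) and 1078 lower (8.49%). Changes of at least 2-fold were made up of 441 rises (3.47%) and 115 falls (0.906%), and changes of at least 4-fold of 37 rises (0.291%) and 1 fall (0.00788%). Every 1.0 Gy array lay above all controls for 1001 genes (7.88%) and below all controls for 810 genes (6.38%).

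Pde5a, which breaks down the messenger cyclic GMP in platelets and smooth muscle, had the largest rise of all called genes. It read 3.52, 4.33, 3.35, 3.71 and 3.48 in the controls and 6.82, 6.38, 6.84 and 7.26 at 1.0 Gy. The groups were separated by a gap wider than the spread of either, and the change was 3.15 ± 0.21 (SE, adjusted p = 4.39e-08), or 8.85-fold. Thbs1, the granule protein thrombospondin, read 7.53, 7.91, 6.98, 7.38 and 7.88 in the controls. At 1.0 Gy it read 10.49, 10.25, 10.27 and 10.65, well above every control. Vwf, von Willebrand factor, which tethers platelets to the vessel wall, went from 6.39 ± 0.67 (SD, n = 5) to 9.14 ± 0.47 (SD, n = 4). Its controls were the most spread of these genes, from 5.81 to 7.41, and still did not overlap with the irradiated range of 8.49 to 9.61.

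The next largest rises belonged to the same setting or to none of the lists. Slc6a4, the serotonin transporter that fills platelet granules, rose by 2.47 ± 0.18 and F5, coagulation factor V, by 2.46 ± 0.19. Mmp19, a matrix metalloproteinase, rose by 2.50 ± 0.24. Ro60, which binds small noncoding RNAs called Y RNAs, rose by 2.62 ± 0.20. The actin regulator Abi2 rose by 2.41 ± 0.24, Frmd4b, a scaffold protein, by 2.46 ± 0.19 and Cracd, an inhibitor of actin capping, by 2.65 ± 0.24. The value of Cracd rests on 1 of its 4 probe sets that passed the filter. The others gave -0.10 ± 0.20, 0.30 ± 0.15 and -0.22 ± 0.15, none called. Over the mean of all its probe sets, any below the filter included, the change was 0.55. Slfn4, a Schlafen gene of myeloid cells, and Ifit3 completed the 12 largest rises and are described with the interferon genes.

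**Figure D2:**
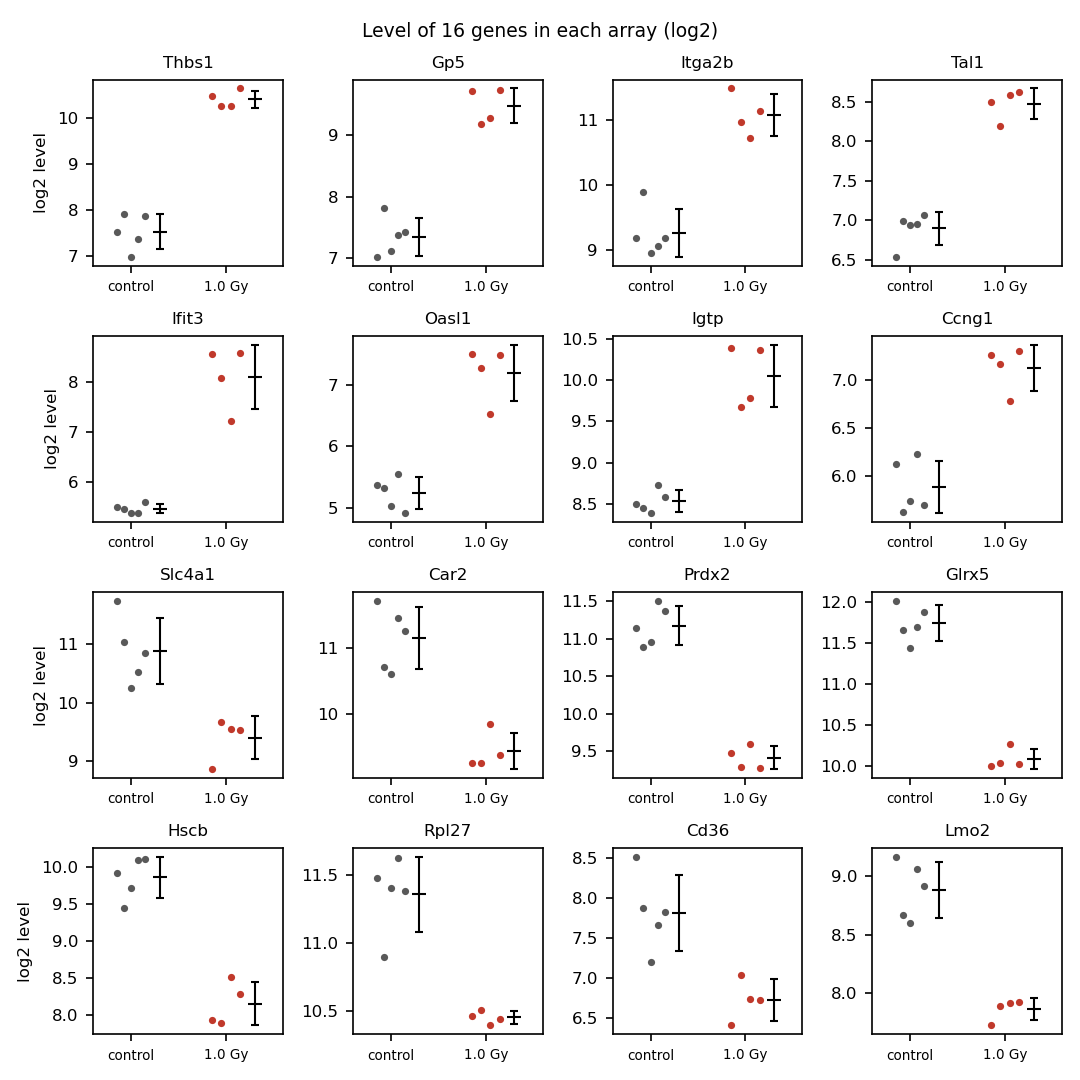
Points are the log2 levels of 16 genes in each of the 5 control and 4 irradiated arrays, and the bar beside them is the mean with its SD; each panel has its own scale. The genes were chosen with their values known, and in all 16 panels the 2 groups occupy separate ranges. Over all genes the 1.0 Gy arrays lay wholly above the controls for 7.88% and wholly below them for 6.38%. Ifit3 and Oasl1 show 1 irradiated array, replicate 3, below the other 3.

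Platelets adhere through glycoprotein and integrin receptors, and these rose almost as a block. Of 26 receptor genes tested, 23 rose and 1 fell, against 8.8% and 8.49% of all genes, with a median log2 change of 1.31 against -0.04 over all genes. The mean level of the list ran from 7.12 to 7.61 over the controls and from 8.44 to 8.74 over the 1.0 Gy arrays. Gp5, a subunit of the receptor for von Willebrand factor, read 7.01, 7.80, 7.11, 7.38 and 7.43 in the controls and 9.72, 9.19, 9.28 and 9.73 at 1.0 Gy. The ranges were apart by more than 1 log2 unit, and the change was 2.13 ± 0.18 (SE, adjusted p = 1.31e-07). The partner subunit Gp1bb rose by 1.59 ± 0.19 and Gp9 by 1.27 ± 0.22. Both chains of the fibrinogen receptor rose, Itga2b by 1.83 ± 0.19 and Itgb3 by 2.21 ± 0.22. So did Itga6, a chain of the laminin receptor (2.21 ± 0.20), and Fermt3, kindlin-3, which activates integrins from inside the cell (1.58 ± 0.16). Selp, P-selectin, which activated platelets show to leukocytes, rose by 2.03 ± 0.22. Slamf1, a signalling receptor that also marks blood stem cells, rose by 1.66 ± 0.19.

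Cd36, a scavenger receptor of platelets that monocytes and red cell precursors carry as well, was the exception. It read 8.51, 7.87, 7.19, 7.66 and 7.82 in the controls and 6.40, 7.03, 6.73 and 6.72 at 1.0 Gy, every irradiated value below every control. The change was -1.09 ± 0.19 (SE, adjusted p = 0.000348). Tbxa2r and Jam3 were the receptor genes that were not called.

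Granule and secreted proteins followed the receptors, with 18 of 27 rising, 1 falling and a median of 1.46. Stx11, a syntaxin needed for granule release, rose by 2.0 ± 0.16, and so did Slc18a2, which loads serotonin into granules (1.94 ± 0.20). F13a1, the clot-stabilising factor XIII, rose by 1.72 ± 0.17 and Mmrn1, multimerin, by 1.99 ± 0.18. The chemokine genes Pf4 and Ppbp, which are platelet products lying near the top of the array's scale, changed less. Pf4 read 11.84, 12.17, 12.29, 12.47 and 12.64 in the controls and 12.93, 12.98, 13.16 and 13.03 at 1.0 Gy, without overlap (0.74 ± 0.15, SE, adjusted p = 0.00176). Ppbp rose by 0.83 ± 0.14.

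Among signalling and cytoskeletal genes of platelets 33 of 38 rose, with a median of 1.39. Mrvi1, a target of the cyclic GMP kinase, rose by 2.20 ± 0.17, and the kinase itself, Prkg1, by 1.11 ± 0.16. Gucy1b1, a subunit of the enzyme that makes cyclic GMP, rose by 1.81 ± 0.22. Gucy1a1, the other subunit, had a log2 difference of -0.08 ± 0.12 and was not called. The dimmer probe set of Gucy1a1, of nearly the same level, was called higher (1.996 ± 0.25, adjusted p = 1.17e-05 in limma). The direction of Gucy1a1 thus depended on its probe set. Over the mean of all its probe sets the change was 0.80. Under a repeated quantile normalization, after which the brightest probe set was chosen anew, it was 1.97. Vcl, vinculin, rose by 2.38 ± 0.18, Parvb, an integrin-linked adaptor, by 2.12 ± 0.16 and Mylk, the kinase of the myosin light chain, by 1.93 ± 0.16. The dimmer probe set of Parvb was at 0.18 ± 0.20 and not called. Tubb1, the tubulin of the platelet's marginal band, read 10.20 to 10.98 in the controls and 12.36 to 12.87 at 1.0 Gy (1.91 ± 0.17).

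More transcription factors of megakaryocytes and red cell precursors rose than fell. Of 24, 10 rose (41.7%, against 8.8% of all genes) and 1 fell (4.17%, against 8.49%), with a median of 0.18. Tal1 read 6.54, 6.996, 6.95, 6.96 and 7.06 in the controls and 8.50, 8.19, 8.58 and 8.62 at 1.0 Gy, and every irradiated array was more than 1 unit above the highest control (1.57 ± 0.15, SE, adjusted p = 4.04e-07). Gata1 rose by 1.09 ± 0.17, its relative Gata2 by 1.01 ± 0.17, the partner of platelet formation Nfe2 by 1.16 ± 0.16, Fli1 by 1.07 ± 0.21 and Gfi1b by 0.83 ± 0.16. Lmo2, the bridging subunit that joins Tal1 and Gata1 in 1 complex, went the other way, with levels of 8.60 to 9.16 in the controls and 7.72 to 7.92 at 1.0 Gy (-1.02 ± 0.12, SE, adjusted p = 6.82e-06). Klf1, a factor of red cell precursors, had a log2 difference of -0.12 ± 0.12 and Runx1 of -0.02 ± 0.10, and neither was called. For Runx1, 1 of 4 dimmer probe sets was called higher (0.94 ± 0.19, adjusted p = 0.00125 in limma). Under the 18S covariate 1 of the 24 factors rose and 1 fell, and the calls of Gata1, Gata2, Nfe2, Fli1 and Gfi1b were lost.

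The platelet medians were 0.98, 1.06 and 1.07 for receptors, granules and signalling at 0.5 Gy and 1.73, 1.69 and 1.70 at 3.0 Gy, each against the same controls. The 3.0 Gy arrays have 18S levels within the control range and the 0.5 Gy arrays above it. With 18S as a covariate at 1.0 Gy the 3 medians were 1.24, 1.37 and 1.66, and 6, 13 and 21 genes rose.

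**Figure D3:**
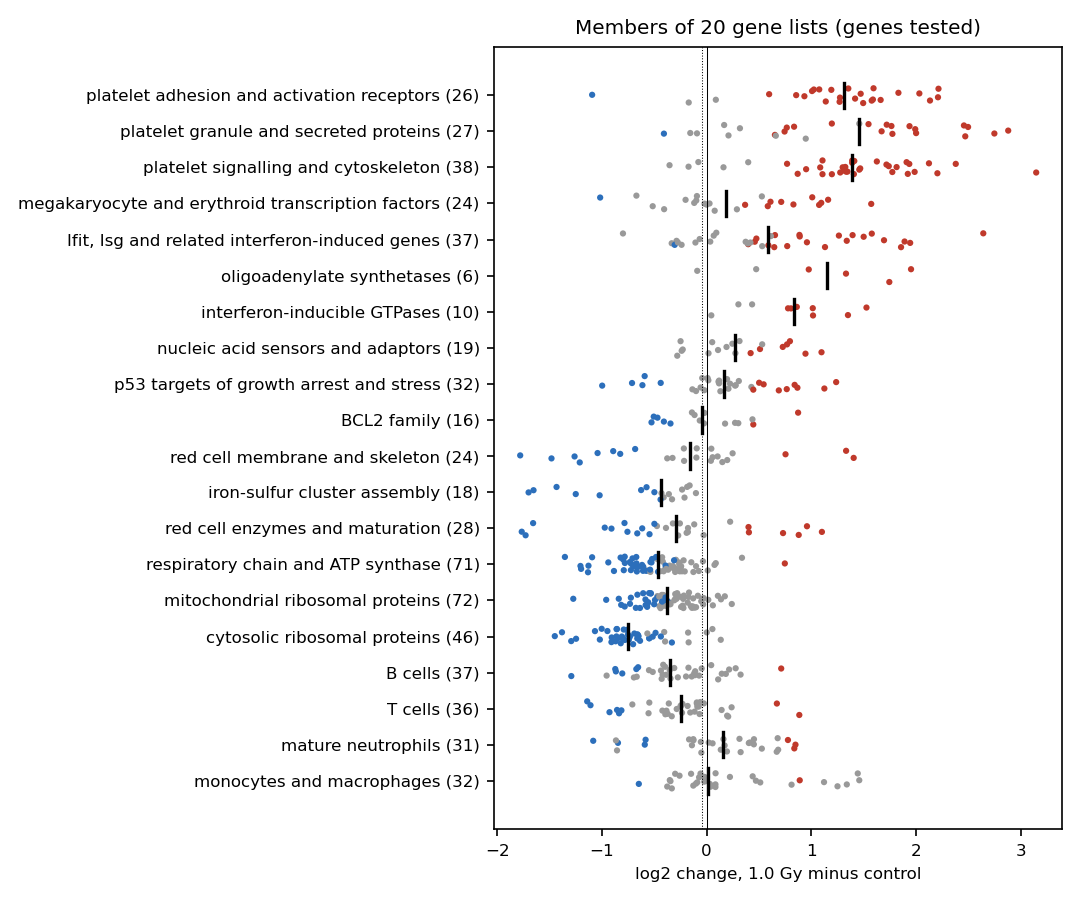
Each point is a tested gene of 1 of 20 lists, placed by its log2 change at 1.0 Gy against control; red marks called rises, blue called falls and grey genes not called, the black bar is the list's median and the dotted line the median of all genes, -0.04. The 3 platelet lists have medians from 1.31 to 1.46, and the ribosomal protein list has the lowest, at -0.75.

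Interferon-induced genes formed the second group of rises. Of the 37 tested genes in the Ifit, Isg and related list, 21 rose and 1 fell, with a median of 0.59. Ifit3, which helps bind foreign RNA, read 5.50, 5.46, 5.37, 5.38 and 5.59 in the controls and 8.55, 8.08, 7.205 and 8.57 at 1.0 Gy. The controls lay within a narrow band and the lowest irradiated array, replicate 3, was still more than 1 unit above it (2.64 ± 0.22, SE, adjusted p = 1.17e-07, 6.24-fold). Ifit1 rose by 1.89 ± 0.23, Ifit2 by 1.69 ± 0.19 and Usp18, which removes the ubiquitin-like protein Isg15, by 1.94 ± 0.23. Cmpk2, a nucleotide kinase beside Rsad2 in the genome, rose by 1.86 ± 0.22, while Rsad2 had a log2 difference of -0.33 ± 0.22 and was not called. Of the dimmer probe sets of Rsad2, 1 was called lower (-0.89 ± 0.22, adjusted p = 0.00825 in limma) and the other was not (-0.50 ± 0.24). Further rises were those of Lgals3bp (1.58 ± 0.18), Rtp4 (1.39 ± 0.19) and the ADP-ribosyltransferases Parp12 (1.499 ± 0.26) and Parp14 (1.34 ± 0.24). Without control replicate 3, 14 members of the list rose instead of 21.

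Replicate 3 was the lowest of the irradiated mice in this list. The mean level over its genes was 7.57, 7.44, 6.88 and 7.57 in the 4 irradiated mice, and the controls ran from 6.51 to 6.88, so only replicate 3 overlapped with them. Parp12 read 5.50, 5.42, 4.28 and 5.58 at 1.0 Gy, with replicate 3 the lowest but still above the control range of 3.35 to 3.98.

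The antiviral oligoadenylate synthetases, which sense double-stranded RNA, rose in 4 of 6 genes. Oasl1 read 5.38, 5.33, 5.04, 5.56 and 4.92 in the controls and 7.50, 7.28, 6.53 and 7.48 at 1.0 Gy, without overlap (1.95 ± 0.22, SE, adjusted p = 3.01e-06). Oas1a rose by 1.33 ± 0.22, Oas2 by 0.98 ± 0.14 and Oasl2 by 1.74 ± 0.29. Among interferon-inducible GTPases, which attack the vacuoles of intracellular parasites, 7 of 10 rose, with a median of 0.83. Igtp read 8.50, 8.45, 8.39, 8.73 and 8.59 in the controls and 10.39, 9.68, 9.79 and 10.36 at 1.0 Gy, without overlap (1.53 ± 0.17, SE, adjusted p = 2.51e-06). Its neighbour Irgm2 rose by 1.01 ± 0.20, Irgm1 by 0.81 ± 0.15, Gbp2 by 1.35 ± 0.25 and Gbp6 by 1.02 ± 0.19. Slfn4 rose from 6.89 ± 0.54 (SD, n = 5) to 9.51 ± 0.41 (SD, n = 4), a change of 2.63 ± 0.31, and Slfn5 by 1.23 ± 0.24. Probe sets of the Slfn, Gbp and Oas families can bind more than 1 member. The 18S covariate left 1 of 6 synthetases and 2 of 10 GTPases higher, and with it Slfn4 and Slfn5 lost their calls.

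Among sensors that feed interferon production 7 of 19 rose, none fell and 12 were not called. None of the 19 was called with 18S as a covariate. Zbp1, a sensor of Z-form nucleic acid, rose by 0.80 ± 0.13 and Eif2ak2, the kinase PKR, by 1.10 ± 0.22. The dimmer probe set of Eif2ak2, of nearly the same level, was at 0.19 ± 0.12 and not called. Ddx58, which encodes RIG-I, rose by 0.94 ± 0.19 and Ifih1, which encodes MDA5, by 0.77 ± 0.20. Cgas and Sting1 of the DNA-sensing arm had log2 differences of 0.05 ± 0.11 and -0.25 ± 0.15 and were not called. The signalling layer had 2 rises (8.33%) and 3 falls (12.5%) among 24 genes, near the 8.8% and 8.49% of all genes. Jak2 rose by 0.96 ± 0.15, and Ifngr2, a subunit of the receptor for type II interferon, fell (-0.79 ± 0.17). The transcription factors Stat2, Stat3 and Irf1 had log2 differences of 0.29 ± 0.12, 0.19 ± 0.17 and 0.06 ± 0.15 and were not called. Dimmer probe sets were called higher for Stat2 (0.45 ± 0.13, adjusted p = 0.0229 in limma) and, as 1 of 3, for Stat3 (0.71 ± 0.23, adjusted p = 0.0422). Over the Ifit list the medians were 0.01 at 0.5 Gy, 0.59 at 1.0 Gy and 0.16 at 3.0 Gy against the same controls. With 18S as a covariate the 1.0 Gy median was 0.40 and 5 genes rose.

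The promoters of several of these genes carry the core of the interferon-stimulated response element, the sequence that STAT and IRF factors bind. The core was searched on both strands as GAAA, any 2 bases and GAAA again in RefSeq promoters of the build GRCm38.p6, from 250 bases before to 50 after the start site, and 10210 of the 12696 tested genes had a promoter in the table. It was found in 374 of those (3.66%), and in 3.44% of all 32851 promoters. Of the members of the interferon lists, 33 that rose had a promoter and 17 of them held the core (51.5%), against 12 of 46 members that were not called (26.1%). Among risen platelet genes 5 of 69 held it (7.25%). The lists were written from known interferon genes, and a match describes letters in the window, not binding. The windows of 6 risen genes are shown 5′ to 3′ on the gene's strand, with each match or overlapping matches in capitals and 20 bases on either side; a match that starts with TTTC is the core on the other strand.
Ifit1 (chr19:34640765-34640833, plus strand): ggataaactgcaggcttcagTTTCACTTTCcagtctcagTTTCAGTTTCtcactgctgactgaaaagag
Ifit3 (chr19:34583353-34583436, plus strand): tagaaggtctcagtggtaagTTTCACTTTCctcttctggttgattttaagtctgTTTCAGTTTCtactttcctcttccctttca
Oas1a (chr5:120907510-120907565, minus strand): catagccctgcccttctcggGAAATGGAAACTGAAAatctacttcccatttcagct
Igtp (chr11:58199502-58199551, plus strand): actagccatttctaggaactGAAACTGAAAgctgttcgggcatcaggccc
Irgm2 (chr11:58214893-58214942, plus strand): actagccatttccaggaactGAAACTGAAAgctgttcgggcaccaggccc
Gbp2 (chr3:142620584-142620633, plus strand): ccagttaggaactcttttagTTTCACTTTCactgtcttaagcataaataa
Ifit1 and Ifit3 each held 2 matches upstream of the start site, and in Oas1a 2 matches overlapped. The windows of Igtp and Irgm2 were identical in 48 of 50 bases. The core of the NF-E2 site, TGCTGA, any base and TCA on either strand, was rare, in 0.423% of all promoters and in 2 of 69 risen platelet genes, Mylk and Tbxas1.
Mylk (chr16:34784866-34784915, plus strand): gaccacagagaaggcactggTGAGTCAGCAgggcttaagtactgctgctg
Tbxas1 (chr6:38918902-38918951, plus strand): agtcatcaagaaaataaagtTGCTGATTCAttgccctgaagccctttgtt
Both genes rose at 1.0 Gy, Tbxas1, the thromboxane synthase, by 1.08 ± 0.17.

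Targets of p53 moved both ways. Of 32 targets of arrest and stress, 9 rose (28.1%, against 8.8% of all genes) and 5 fell (15.6%, against 8.49%), with a median of 0.16. Ccng1, cyclin G1, an early p53 target, read 6.13, 5.64, 5.75, 6.23 and 5.70 in the controls and 7.26, 7.17, 6.78 and 7.30 at 1.0 Gy. The lowest irradiated array lay above the highest control, and the change was 1.24 ± 0.14 (SE, adjusted p = 3.73e-06). Cdkn1a, the CDK inhibitor p21, read 5.03, 5.20, 4.93, 4.61 and 5.25 in the controls and 5.84, 5.84, 5.49 and 5.90 at 1.0 Gy, again without overlap (0.77 ± 0.16, SE, adjusted p = 0.00156). Phlda3, an inhibitor of AKT, rose by 0.69 ± 0.14, Zmat3, an RNA-binding regulator of splicing, by 1.12 ± 0.21, Dglucy by 0.87 ± 0.14 and Trp53inp1 by 0.84 ± 0.20. A dimmer probe set of Trp53inp1 was at -0.02 ± 0.11 and not called, and over the mean of both the change was 0.41. The DNA polymerase of lesion bypass Polk rose by 0.54 ± 0.11.

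Other well-known targets were not called or fell. Mdm2, the ubiquitin ligase that p53 switches on to limit itself, read 5.56, 4.90, 5.32, 5.38 and 5.14 in the controls and 5.40, 5.34, 5.23 and 5.60 at 1.0 Gy. The groups overlapped, and the log2 difference of 0.13 ± 0.13 was not called (limma adjusted p = 0.573). Fas, the death receptor, had a log2 difference of -0.02 ± 0.17 and was not called either. Gadd45a, a stress gene that p53 shares with other regulators, fell by 1.00 on the log2 scale, with levels of 8.62 to 9.42 in the controls and 7.75 to 8.15 at 1.0 Gy (SE 0.17, adjusted p = 0.000228). Ptp4a3, a tyrosine phosphatase, fell as well (-0.71 ± 0.14).

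The p53 consensus of 2 adjacent half-sites, at most 13 bases apart, was found in 0.0731% of all promoters. In the 11 risen members of the p53 and death lists with a promoter, Cdkn1a held it, from -73 to -42 relative to the start site, with the half-sites at either end of the capitals.
Cdkn1a (chr17:29090886-29090957, plus strand): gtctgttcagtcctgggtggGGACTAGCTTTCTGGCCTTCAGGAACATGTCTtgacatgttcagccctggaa
Targets whose sites lie further from the start or in an intron are outside this window.

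Genes that carry out or block cell death moved both ways. In the BCL2 family 2 of 16 rose (12.5%, against 8.8% of all genes) and 5 fell (31.25%, against 8.49%). Bid, which links death receptors to mitochondria, rose by 0.87 ± 0.18 (adjusted p = 0.00208), and Bad, another death-promoting member, changed by -0.47 ± 0.11. The protective genes Bcl2, Bcl2l1 and Mcl1 had log2 differences of 0.30 ± 0.15, -0.11 ± 0.13 and 0.18 ± 0.27 and were not called. Both dimmer probe sets of Bcl2l1 were called lower, at -0.55 ± 0.18 and -0.82 ± 0.23 (adjusted p = 0.0387 and 0.02 in limma). Among caspases, death receptors and their inhibitors 1 of 19 fell (5.26%, against 8.49% of all genes) and 3 rose (15.8%, against 8.8%). The 3 that rose encode inhibitors of death signalling, too few to describe the list. Birc2 read 8.53, 8.59, 8.94, 9.22 and 9.12 in the controls and 9.95, 9.62, 10.24 and 10.29 at 1.0 Gy, without overlap (1.14 ± 0.21). Cflar rose by 0.94 ± 0.17 and Xiap by 0.92 ± 0.20. With 18S as a covariate no p53 target and no BCL2 gene was called, and the median of the p53 list was 0.12.

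Red cell membrane genes moved both ways, with more falls than rises. Of 24 genes of the red cell membrane and its skeleton 8 fell (33.3%, against 8.49% of all genes) and 3 rose (12.5%, against 8.8%). The median was -0.16. Slc4a1, the anion exchanger band 3, read 11.75, 11.05, 10.25, 10.53 and 10.86 in the controls and 8.86, 9.67, 9.56 and 9.53 at 1.0 Gy. The ranges did not overlap, and the change was -1.48 ± 0.23 (SE, adjusted p = 8.58e-05). Epb42, protein 4.2, which ties band 3 to the skeleton, changed by -1.78 ± 0.30, Tmod1, which caps actin in the skeleton, by -1.04 ± 0.21 and Kel, the Kell blood group protein, by -0.89 ± 0.16. Tspan33, a tetraspanin of red cell precursors, read 8.58 to 9.21 in the controls and 7.67 to 7.89 at 1.0 Gy (-1.21 ± 0.14). The spectrin gene Sptb and the ankyrin gene Ank1 had log2 differences of 0.25 ± 0.12 and 0.04 ± 0.14 and were not called. The dimmer probe set of Sptb was called in the opposite direction (-0.56 ± 0.15, adjusted p = 0.0158 in limma), so the direction of Sptb depends on the probe set. Aqp1, a water channel, and Gypc, glycophorin C, rose by 1.40 ± 0.19 and 1.33 ± 0.16. None of the 24 genes fell and 1 rose with 18S as a covariate, at a median of -0.13.

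Enzymes of the maturing red cell gave some of the deepest falls. Of 28 genes 11 fell (39.3%, against 8.49% of all genes) and 6 rose (21.4%, against 8.8%), with a median of -0.30. Car2, carbonic anhydrase 2, read 11.73, 10.72, 10.61, 11.46 and 11.26 in the controls and 9.25, 9.25, 9.84 and 9.37 at 1.0 Gy, without overlap (-1.73 ± 0.20, SE, adjusted p = 3.4e-06). Prdx2, the peroxiredoxin that protects hemoglobin from peroxide, read 11.15, 10.89, 10.96, 11.51 and 11.37 in the controls and 9.48, 9.29, 9.60 and 9.28 at 1.0 Gy. Its controls and irradiated values were more than 1 unit apart (-1.76 ± 0.13, SE, adjusted p = 6.49e-08). Trim10, a ubiquitin ligase of terminal red cell maturation, fell (-1.66 ± 0.20), and Fbxo7 and Bsg changed by -0.78 ± 0.12 and -0.91 ± 0.15. The glycolytic genes Tpi1 and Aldoa, which platelets and leukocytes use too, rose by 1.10 ± 0.15 and 0.88 ± 0.13. When 18S was a covariate 2 of the 28 genes fell, none rose and the median was -0.02, and the calls of Trim10, Fbxo7, Bsg, Tpi1 and Aldoa were lost.

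Of 33 genes of heme, globin and iron 8 fell (24.2%, against 8.49% of all genes) and 1 rose (3.03%, against 8.8%). With 18S as a covariate 2 of these genes fell and none rose. Fam210b, a mitochondrial protein that helps iron reach heme synthesis, changed by -1.69 ± 0.16, Blvrb, biliverdin reductase B, by -1.56 ± 0.16, Urod, an enzyme of the middle of the pathway, by -0.94 ± 0.18 and the heme transporter Slc48a1 by -0.85 ± 0.15. Alas2, the first and rate-limiting enzyme in red cells, read 14.002, 13.95, 13.77, 13.83 and 13.96 in the controls and 13.71, 13.66, 13.65 and 13.72 at 1.0 Gy. Its irradiated values all lay below the controls, yet the difference of -0.22 ± 0.09 did not pass the test (limma adjusted p = 0.121). Alas2 lies at the top of the array's scale, as does the globin gene Hbb-b2 (-0.24 ± 0.10, not called).

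Iron-sulfur cluster assembly, the mitochondrial route that builds the cofactors of many enzymes, fell in 9 of 18 genes, with a median of -0.44 and no member called higher. Glrx5, which passes new clusters on, read 12.01, 11.66, 11.44, 11.70 and 11.88 in the controls and 10.004, 10.04, 10.27 and 10.03 at 1.0 Gy. The groups stood more than 1 unit apart (-1.65 ± 0.12, SE, adjusted p = 5.98e-08). Hscb, a co-chaperone of the scaffold, read 9.91, 9.45, 9.72, 10.10 and 10.10 in the controls and 7.94, 7.89, 8.51 and 8.29 at 1.0 Gy, also without overlap (-1.70 ± 0.15). Bola3 changed by -1.43 ± 0.17, Bola2 by -1.25 ± 0.15, the scaffold Iscu by -1.02 ± 0.13 and the ferredoxin Fdx1 by -0.62 ± 0.16. The cysteine desulfurase Nfs1, which supplies the sulfur, had a log2 difference of -0.41 ± 0.15 and was not called, while its dimmer probe set was (-0.40 ± 0.12, adjusted p = 0.0268 in limma). With 18S as a covariate the median was -1.08 and 5 genes fell.

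Single genes of neighbouring processes were among the 12 deepest falls. Atg4a, a protease that processes the autophagy proteins of the Atg8 family, read 8.78, 7.69, 7.48, 8.24 and 8.19 in the controls and 5.65, 5.93, 6.40 and 6.08 at 1.0 Gy. It was the only called gene that fell by at least 4-fold (-2.06 ± 0.21, SE, adjusted p = 8.34e-07). Txnrd2, the mitochondrial thioredoxin reductase, changed by -1.77 ± 0.17 and Hagh, a glyoxalase that clears methylglyoxal adducts, by -1.65 ± 0.13. Memo1 and Specc1 changed by -1.68 ± 0.13 and -1.67 ± 0.19. The dimmer probe sets of Specc1 were at 0.16 ± 0.27 and -0.34 ± 0.20, neither called. Over the mean of all 3 its change was -0.62, and with 18S as a covariate its call was lost. Within autophagy 5 of 33 genes rose (15.2%, against 8.8% of all genes) and 6 fell (18.2%, against 8.49%). The membrane proteins of lysosomes Lamp1 and Lamp2 rose by 0.98 ± 0.14 and 1.49 ± 0.16, Gabarapl1 rose by 1.08 ± 0.17 and Gabarapl2 changed by -0.93 ± 0.11. Map1lc3b changed by -0.92 ± 0.12 in its brightest probe set, but 2 other probe sets were called in the opposite direction, so its direction depends on the probe set.

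Genes of protein synthesis fell in large numbers. Of 46 cytosolic ribosomal protein genes 38 fell and the other 8 were not called, with a median of -0.75. The list's mean level ran from 9.97 to 10.70 in the controls and from 9.51 to 9.78 at 1.0 Gy. Rpl27 read 11.48, 10.90, 11.41, 11.63 and 11.38 in the controls and 10.47, 10.51, 10.39 and 10.44 at 1.0 Gy, without overlap (-0.91 ± 0.12, SE, adjusted p = 2.75e-05). Rpl22 changed by -1.38 ± 0.20, its paralog Rpl22l1 by -1.45 ± 0.26, Rps14 by -0.87 ± 0.13 and Rps7 by -1.02 ± 0.15. Ribosomal protein genes have many processed pseudogenes, and probe sets cannot always tell them apart. Among initiation and elongation factors 12 of 43 fell (27.9%, against 8.49% of all genes) and 4 rose (9.3%, near the 8.8% of all genes). Eif3m, a subunit of initiation factor 3, changed by -0.86 ± 0.14 and Eef1b2, an exchange factor of elongation, by -0.95 ± 0.15. Eif4ebp1, which holds back cap-dependent initiation, rose by 0.77 ± 0.19, with 1 of 2 dimmer probe sets at -0.15 ± 0.12 and not called.

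Among mitochondrial genes too, more fell than rose. Of 72 mitochondrial ribosomal protein genes 27 fell, with a median of -0.38, including Mrpl32 (-1.27 ± 0.16). Of 71 genes of the respiratory chain and ATP synthase 37 fell and 1 rose, with a median of -0.47. Atp5e, a small subunit of ATP synthase, read 8.31 to 9.39 in the controls and 7.60 to 7.96 at 1.0 Gy (-1.20 ± 0.16, SE, adjusted p = 1.98e-05). Cox6c of complex IV changed by -1.35 ± 0.20, Ndufa5 of complex I by -1.20 ± 0.19 and Uqcrh of complex III by -1.09 ± 0.17. Among 40 proteasome genes 11 fell (27.5%, against 8.49% of all genes) and 1 rose (2.5%, against 8.8%). Psme3, an activator of the nuclear proteasome, was at -1.09 ± 0.12. Of 56 splicing genes 8 fell (14.3%, against 8.49% of all genes) and 3 rose (5.36%, against 8.8%). In all 19.6% were called, near the 17.3% of all genes. Of the falls 6 were in Sm or U1 proteins of the spliceosome, among them Snrpg (-1.38 ± 0.22) and Snrpf (-0.90 ± 0.14). For the cytosolic ribosomal list the median was -0.66 at 0.5 Gy and -1.24 at 3.0 Gy, and with 18S as a covariate at 1.0 Gy it was -1.40, with 21 genes lower.

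**Figure D4:**
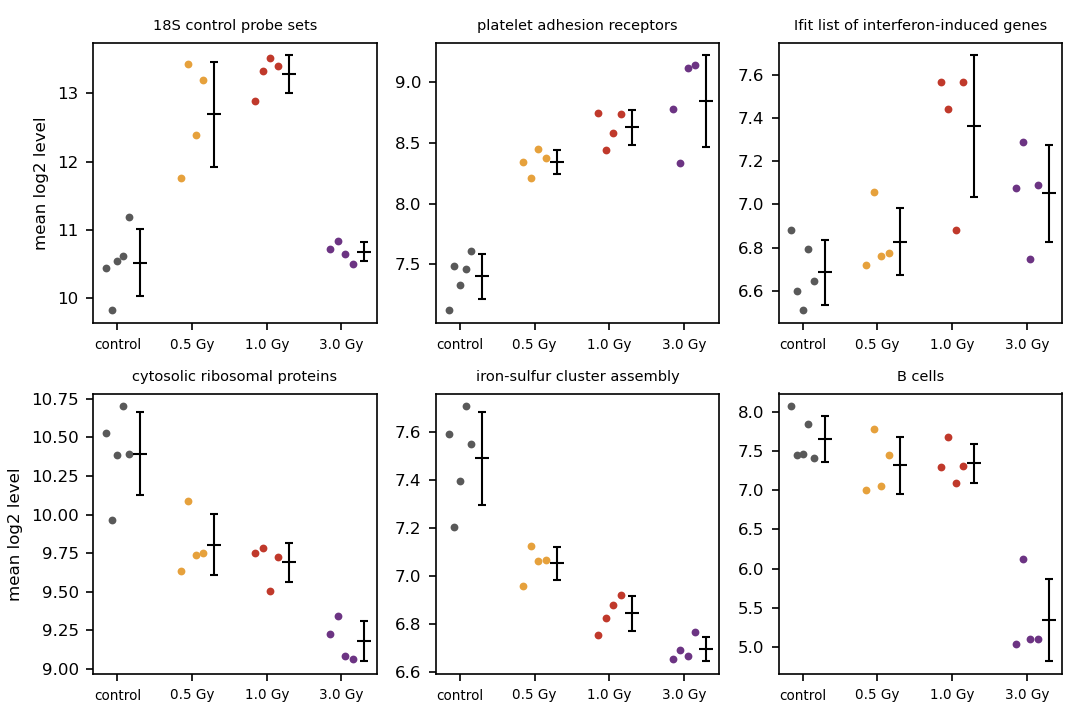
Points are arrays in the 4 dose groups, showing the mean log2 level of the 18S control probe sets and of 5 gene lists; the bar beside them is the group mean with its SD. The 18S level is high at 0.5 and 1.0 Gy and back in the control range at 3.0 Gy, while the platelet list stays high and the ribosomal and iron-sulfur lists stay low at 3.0 Gy; the B cell list lies wholly below the control range at 3.0 Gy only.

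Lymphocyte genes fell more often than they rose in the B and T cell lists. Of 37 B cell genes 6 fell (16.2%, against 8.49% of all genes) and 1 rose (2.7%, against 8.8%), with a median of -0.34. Under the 18S covariate 3 fell, none rose and the median was -1.23. Cd79a, a signalling chain of the B cell receptor, read 8.28, 7.42, 7.75, 8.22 and 7.66 in the controls and 6.92, 7.201, 6.96 and 6.90 at 1.0 Gy. The irradiated values all lay just below the lowest control (-0.87 ± 0.23, SE, adjusted p = 0.0132). Cd55, a protector from complement that many blood cells carry, changed by -1.29 ± 0.31. Ms4a1, which encodes CD20, and the B cell factors Pax5 and Ebf1 had log2 differences of 0.14 ± 0.39, -0.14 ± 0.13 and -0.05 ± 0.29 and were not called. The antigen-presenting class II genes had a median of -0.61. Of 13, 2 fell (15.4%, against 8.49% of all genes) and 1 rose (7.69%, against 8.8%). Among the falls was H2-DMa, which loads peptides onto class II molecules, with 7.84 to 8.69 in the controls and 6.84 to 7.48 at 1.0 Gy (-1.07 ± 0.25). H2-Ab1, a chain of the class II molecule, had a log2 difference of -0.90 ± 0.35 with an adjusted p of 0.0861 in limma. Both dimmer probe sets of H2-Ab1 were called lower, at -0.97 ± 0.25 and -1.02 ± 0.23 (adjusted p = 0.00988 and 0.00322 in limma). No class II gene was called with 18S as a covariate.

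T cell genes gave 6 falls (16.7%, against 8.49% of all genes) and 2 rises (5.56%, against 8.8%) among 36, with a median of -0.24. When 18S was a covariate none fell, 1 rose and the median was -0.12, and the calls of Cd3d, Cd3g, Cd8b1 and S1pr1 were lost. Cd3d, a chain of the T cell receptor complex, read 9.55, 8.64, 9.48, 10 and 8.90 in the controls and 8.79, 8.08, 7.62 and 8.33 at 1.0 Gy. The ranges overlapped at 1 irradiated array, replicate 1, and the change was -1.11 ± 0.25 (SE, adjusted p = 0.00334). Cd3g changed by -0.93 ± 0.21 and Cd8b1, a coreceptor chain of cytotoxic T cells, by -1.14 ± 0.26, while Cd3e, another chain of the same complex as Cd3d, had a log2 difference of -0.03 ± 0.16 and was not called. S1pr1, the receptor by which lymphocytes leave lymph nodes, changed by -0.84 ± 0.18. Prkcq, a kinase of T cell activation that platelets also hold, rose by 0.88 ± 0.15. Of 27 genes of NK and cytotoxic cells 4 rose (14.8%, against 8.8% of all genes) and 1 fell (3.7%, against 8.49%). None of the 27 was called with 18S as a covariate. Serpinb9, an inhibitor of granzyme B, rose by 0.91 ± 0.14, while Ncr1, a receptor of NK cells, had a log2 difference of 0.16 ± 0.18 and was not called.

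Myeloid genes had no common direction. Of 31 neutrophil genes 3 rose (9.68%) and 4 fell (12.9%), near the 8.8% and 8.49% of all genes, with a median of 0.16. Alox5ap, which serves leukotriene synthesis, rose by 0.84 ± 0.18 and G0s2, an inhibitor of lipolysis, changed by -0.59 ± 0.11. The calprotectin gene S100a9 had a log2 difference of -0.87 ± 0.31 (limma adjusted p = 0.0646) and the receptor gene Csf3r of 0.32 ± 0.31, neither called. Fcer1g, the shared signalling chain of Fc receptors, which the platelet collagen receptor also uses, rose by 0.96 ± 0.15. Of 32 monocyte and macrophage genes 1 rose and 1 fell (3.125% each, against 8.8% and 8.49% of all genes), and the spread between mice was wide. C1qa, a chain of complement C1q made by macrophages, read 4.68, 2.73, 4.28, 3.13 and 7.11 in the controls and 7.66, 7.98, 4.58 and 2.69 at 1.0 Gy. The high arrays were replicates 1 and 2 at 1.0 Gy and replicate 5 of the controls, and the groups overlapped (1.34 ± 0.98, not called). C1qb, C1qc and the macrophage gene Adgre1 had log2 differences of 1.25 ± 0.80, 1.44 ± 0.88 and 1.12 ± 0.43 with the same 2 irradiated arrays highest, and were not called.

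Genes of mitosis and of repair were called in shares near the 17.3% of all genes, and D-type cyclin, chaperone and peroxide defence genes in shares above it. Of 34 tested genes of mitosis 5 fell (14.7%, against 8.49% of all genes) and the rest were not called, while 16 more lay below the filter. Nusap1, which bundles spindle microtubules, changed by -1.25 ± 0.23, Cdc25b, a phosphatase at mitotic entry, by -1.01 ± 0.19, and Ube2c and Ube2s, enzymes of the anaphase-promoting complex, by -0.84 ± 0.16 and -0.80 ± 0.12. Mki67 and Top2a, markers of dividing cells, had log2 differences of 0.45 ± 0.22 and 0.20 ± 0.12 and were not called. Of 23 genes of D-type cyclins, CDKs and RB 7 were called (30.4%), 5 higher and 2 lower. The D-type cyclins Ccnd2 and Ccnd3, which drive entry into the cycle, rose by 1.28 ± 0.25 and 0.90 ± 0.13. The dimmer probe sets of Ccnd3 were at 0.39 ± 0.20 and 2.7e-05 ± 0.11, neither called. Tfdp2, a partner of E2F factors, changed by -1.14 ± 0.14, with 1 of 2 dimmer probe sets at 0.08 ± 0.17 and not called. Of 45 genes of damage signalling and repair 6 were called (13.3%). The 1 that rose was the checkpoint kinase Chek2 (0.72 ± 0.15), and 5 fell, among them Xrcc3 of homologous recombination (-0.78 ± 0.17). Atm, which encodes the kinase that first answers double-strand breaks, had a log2 difference of 0.01 ± 0.17 and was not called. Under the 18S covariate 1 mitosis gene fell and no gene of the cyclin or repair lists was called.

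Chaperone genes rose and fell in equal numbers, 9 each of 44, so that 40.9% were called. The risers included cytosolic HSP90 and HSP110 chaperones, Hsp90aa1 with 7.86 to 8.66 in the controls and 8.92 to 9.50 at 1.0 Gy (1.08 ± 0.15), Hsph1 (1.53 ± 0.23) and Hspa4l (1.599 ± 0.18). The falls included the mitochondrial Hscb named above and Dnajc15 (-1.04 ± 0.20). Among 34 genes of peroxide, glutathione and thioredoxin defence 5 rose and 9 fell, 41.2% in all. Among chaperone genes 3 rose and 2 fell with 18S as a covariate, and 4 defence genes fell. Gpx1, the glutathione peroxidase abundant in red cells, changed by -0.79 ± 0.09 and Mgst3 by -1.19 ± 0.16, while Srxn1, which repairs oxidised peroxiredoxins, rose by 1.19 ± 0.26. Of 26 genes of lipid synthesis 5 rose (19.2%, against 8.8% of all genes). Among the rises were Lpin2, a phosphatidate phosphatase (1.63 ± 0.15), Elovl6, a fatty acid elongase (1.18 ± 0.18), and the desaturase Scd2 (1.17 ± 0.22).

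A further comparison asked where 1.0 Gy stands between the neighbouring doses. Between 1.0 and 0.5 Gy, 2 of 12696 genes were called (0.0158%), both lower at 1.0 Gy. At an unadjusted p under 0.05 in limma 401 genes were higher and 334 lower, against 635 that the threshold alone would give. Glrx5 differed by -0.92 ± 0.13 (SE, adjusted p = 0.0129), with 11.10, 10.82, 11.15 and 10.94 at 0.5 Gy, all above the 1.0 Gy arrays and all below the controls. Hagh differed by -0.91 ± 0.14 (SE, adjusted p = 0.0194) and read 9.81, 9.51, 9.91 and 9.70 at 0.5 Gy and 8.77, 8.65, 9.11 and 8.75 at 1.0 Gy, without overlap. For Ifit3 the difference was 1.25 ± 0.23 and for Oasl1 1.12 ± 0.23, with adjusted p of 0.0763 and 0.0795, so neither was called. The number of calls depended on single arrays, from 0 to 42 when 1 array was left out. It was 42 without 1.0 Gy replicate 3, 17 without control replicate 3, 12 without 3.0 Gy replicate 2, 9 without control replicate 1, 6 without 3.0 Gy replicate 3, and 0 without any of 0.5 Gy replicates 1, 3 and 4 or 1.0 Gy replicates 1, 2 and 4.

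Between 3.0 and 1.0 Gy, 4904 genes were called (38.6%), 2016 higher (15.9%) and 2888 lower (22.7%) at 3.0 Gy. These comparisons share the 1.0 Gy arrays with the comparison against control. Of the B cell genes 34 of 37 were lower at 3.0 Gy than at 1.0 Gy, of the splicing genes 49 of 56 and of the class II genes 11 of 13. Cd79a differed by -1.69 ± 0.25 and Cd8b1 by -2.22 ± 0.27. Of the neutrophil genes 19 of 31 were higher at 3.0 Gy than at 1.0 Gy. Platelet receptors were near the level of 1.0 Gy, with 5 of 26 higher and 2 lower, and Gp5 differed by 0.09 ± 0.19. The falls of Prdx2 and Hscb were smaller at 3.0 Gy, which exceeded 1.0 Gy by 0.44 ± 0.14 and 0.56 ± 0.16. With 18S as a covariate 0 genes were called between 3.0 and 1.0 Gy, while 1516 had an unadjusted limma p under 0.05.

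The same genes can be sorted by both steps. Genes higher at 1.0 Gy than control numbered 234 that were higher again at 3.0 Gy (1.84%) and 147 that were lower at 3.0 Gy than at 1.0 Gy (1.16%). Genes lower at 1.0 Gy numbered 311 that were lower again (2.45%) and 192 that were higher (1.51%). Phlda3 was in the first class, with 0.36, 0.69 and 1.36 against control at 0.5, 1.0 and 3.0 Gy, and so was Gata1, with 0.61, 1.09 and 1.91. Cd36 was in the third class, with -0.49, -1.09 and -2.31. No gene was called as a peak at 1.0 Gy above both neighbours and control, or as a trough below them. With unadjusted limma p under 0.05 for all 3 differences there were 51 peaks and 93 troughs.

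Some rises at 1.0 Gy were falls at 3.0 Gy. Against control 1300 genes were called at 0.5 Gy (10.2%, 5.24% higher and 5% lower) and 6237 at 3.0 Gy (49.1%, 20% higher and 29.2% lower). Of 22 genes called against control in opposite directions at these doses, and called between them, 13 were higher at 1.0 Gy and 9 lower. Sfpq, a splicing protein of nuclear paraspeckles, read 5.70, 5.05, 4.57, 5.02 and 4.70 in the controls, 6.05, 6.29, 5.62 and 6.14 at 1.0 Gy and 2.99, 3.65, 3.01 and 2.81 at 3.0 Gy. Its 1.0 Gy change of 1.02 ± 0.21 rests on its brightest probe set and was no longer called when all its probe sets were averaged. The dimmer probe sets were at -0.14 ± 0.10, 0.13 ± 0.22, 0.37 ± 0.34 and 0.39 ± 0.19, none called. Under a repeated quantile normalization, after which the brightest probe set was chosen anew, the change was -0.14 and not called. With 18S as a covariate it was 0.97 and not called. The difference between 3.0 and 1.0 Gy was -2.91 ± 0.22 (SE, adjusted p = 3.02e-07). Scd2 changed by 1.17 at 1.0 Gy and -0.78 at 3.0 Gy against control, and the endoplasmic reticulum chaperone Hsp90b1 by 1.05 and -0.97. With 18S as a covariate the 1.0 Gy change of Scd2 was -0.11 and not called.

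**Figure D5:**
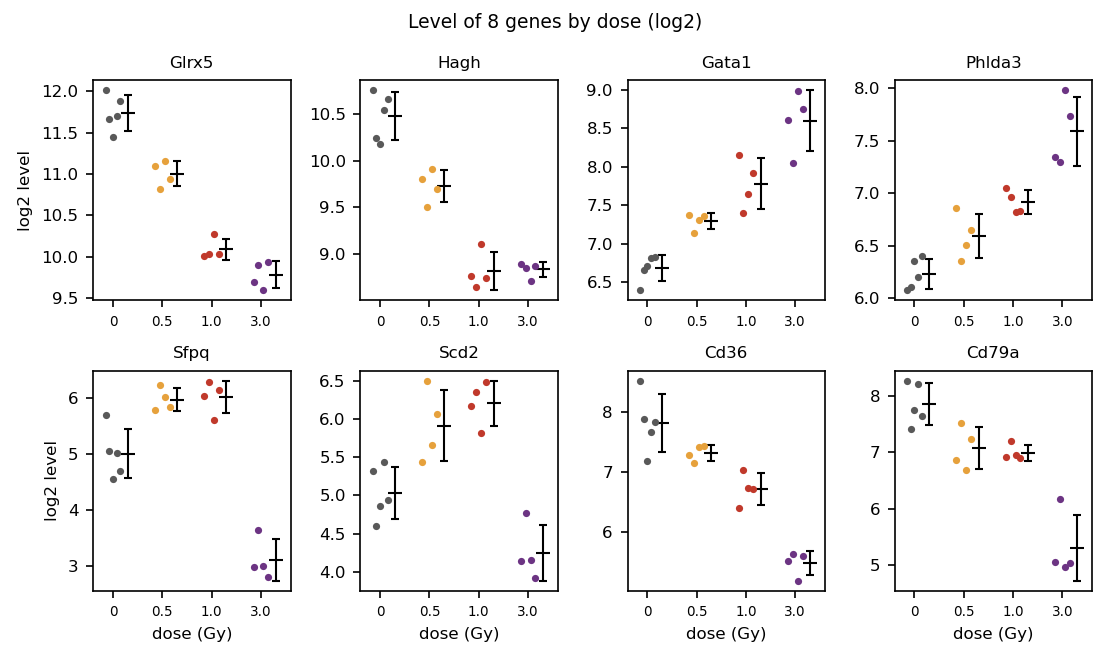
Points are the log2 levels of 8 genes in each array at 0, 0.5, 1.0 and 3.0 Gy, and the bar beside them is the mean with its SD; each panel has its own scale. Glrx5 and Hagh fall between 0.5 and 1.0 Gy, Gata1 and Phlda3 rise with each dose, Sfpq and Scd2 are high at 0.5 and 1.0 Gy and low at 3.0 Gy, and Cd36 and Cd79a are lowest at 3.0 Gy.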

How the data were processed

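Whole-blood RNA of 17 mice was measured on 1 oligonucleotide array each, labelled by a 3' method per the labels' protocols. The authors deposited log2 expression values made by RMA (background correction, quantile normalization and summary of probes to probe sets), with R 3.3.2, per the submitters' processing notes; which RMA software and which settings were used is not given in the sources used here. Quantile normalization gives all arrays nearly the same distribution of values, so a change common to most genes would not be seen. The number of arrays limits the precision.

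Of 45101 probe sets, 932 with several gene symbols, 9160 without one and 64 controls were not used for genes. A gene took its probe set of highest mean, kept if above the array's 50th percentile in at least 4 arrays. limma 3.58.1 (R 4.3.3) fitted 4 group means over 17 arrays (13 residual degrees of freedom), with Benjamini-Hochberg adjustment over 12696 genes and a threshold of 0.05; errors beside changes are standard errors of this fit. The members and the 47 gene lists were chosen with earlier results of these data known, so lists are described by counts and medians only. Genes named are the 12 largest rises and falls with no overlap, up to 4 members a list by p (8 for the first p53, platelet receptor, Ifit and red cell membrane lists), 6 a direction for the dose contrasts and 6 for a peak or trough, and members of lists with at most 5 calls in a direction. A further group of known members was named after the values were seen: Alas2, Aldoa, Ank1, Atm, Bcl2, Bcl2l1, Bsg, C1qa, C1qb, C1qc, Cd36, Cd3e, Cd8b1, Cgas, Csf3r, Dnajc15, Ebf1, Eif4ebp1, F13a1, Fas, Fbxo7, Fdx1, Fli1, Gabarapl1, Gfi1b, Gp9, Gucy1a1, Gucy1b1, H2-Ab1, Hbb-b2, Hsp90b1, Hsph1, Ifih1, Irf1, Irgm2, Iscu, Klf1, Lamp1, Mcl1, Mdm2, Mgst3, Mki67, Mmrn1, Ms4a1, Mylk, Ncr1, Ndufa5, Nfs1, Parp14, Pax5, Pf4, Ppbp, Prkg1, Rpl22l1, Rps7, Rsad2, Runx1, S100a9, Slc18a2, Sptb, Srxn1, Stat2, Stat3, Sting1, Tbxas1, Top2a, Tpi1, Trp53inp1, Tubb1 and Ube2c. The fit was tested on simulated data with known changes. The alternatives were other filters, probe set rules, scalings, spread models, array weights, a replicate block, an 18S covariate and leaving out each array.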

Additional observations from a re-analysis of the deposited data

Results flagged for a closer look

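In 21 of 414 groups of arrays, taken over the 207 genes with printed values, 1 array stood apart from the others of its group by Dixon's criterion, a share of 5.07%. Chance gives about 1 in 20 groups. Among the irradiated mice the array that stood apart differed by gene. Replicate 2 stood apart for Bsg (log2 level 7.86). Replicate 1 did for Cd55 (5.34), Lmo2 (7.72), Lst1 (7.61), Rpl22 (9.97), Rpl22l1 (7.47) and Slc4a1 (8.86). Replicate 3 did for Cdkn1a (5.49), Glrx5 (10.27), Hsp90b1 (6.65), Oasl2 (6.27) and Parp12 (4.28). Such an array was the highest of its group for Glrx5 and the lowest for the other genes. Among the controls the levels of such arrays were C1qb at 7.36, Cgas at 5.38, Gata2 at 6.21, Gucy1a1 at 3.52, Ifit2 at 5.84, Itga2b at 9.90, Slfn4 at 5.96, Tal1 at 6.54 and Xrcc3 at 4.83. For C1qb that control was replicate 5.

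Some genes were called against control in opposite directions at 1.0 and 3.0 Gy, and the difference between the doses was itself tested with limma. On the log2 scale 3.0 Gy minus 1.0 Gy was -2.03 for Hsp90b1, -1.96 for Scd2 and -2.91 for Sfpq.

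Data outside the gene comparison also differed. The 18S control probe sets were higher at 1.0 Gy than in the controls by 2.76. Of 3303 probe sets without a gene symbol that passed the filter, 252 were called in limma, 136 higher and 116 lower at 1.0 Gy. That is a smaller share than over all 24366 probe sets that passed the filter, of which 2111 were higher and 1877 lower.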

How the results depend on the processing

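The counts of genes called at 1.0 Gy against control stayed within 1.5 times the main count under every alternative run except the 18S covariate. With that covariate 606 genes were called, 285 higher and 321 lower, and 0 between 3.0 and 1.0 Gy or between 1.0 and 0.5 Gy (limma unadjusted p under 0.05 for 1516 and 773). Rises then numbered 0 for p53 targets, 6 for platelet receptors, 21 for platelet signalling, 5 for the Ifit list and 2 for the GTPases. Falls numbered 0 for the red cell membrane, 5 for iron-sulfur assembly, 2 for red cell enzymes, 21 for ribosomal proteins and 23 for the respiratory chain. Of the 171 printed calls 93 were lost. The covariate raised the standard errors, and the cause of the lost calls was not tested. Between 1.0 and 0.5 Gy 1 gene was called with the mean of all probe sets, 25 with quantile normalization repeated, 0 with an intensity trend and robust moderation and 199 with array quality weights; the cause was not tested.

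Leaving out 1 array in turn gave 1704 to 2344 calls at 1.0 Gy, 901 to 1236 higher and 770 to 1264 lower, 0 to 42 between 1.0 and 0.5 Gy and 3566 to 5759 between 3.0 and 1.0 Gy. The Ifit list then had 14 to 23 rises, the platelet receptors 23 in every case, and the respiratory chain 28 to 49 falls. Changes that turned direction were those of Map1lc3b (0.11), Gucy1a1 (0.80) and Runx1 (0.37) with the mean of all probe sets, Sfpq (-0.14) and Gucy1a1 (1.97) with quantile normalization repeated, and Ms4a6d (-0.055), Treml4 (0.28), Scd2 (-0.11) and Slc25a51 (0.091) with the 18S covariate. After the repeated normalization the brightest probe set was chosen anew, so for Sfpq and Gucy1a1 the probe set could change too. Same-numbered control and 1.0 Gy arrays had correlations of deviations of 0.31, -0.06, 0.36 and 0.20. The labels state no pairing and 1 of the 4 was under 0.1, so the numbers were not treated as pairs. Of 8 arrays 5 correlated best with their own number, a hint from the data and not the design. The replicate number as a block gave 2032 calls, 1085 higher and 947 lower, and shared 1863 of the 2195 calls; it moved no list count by over 1.5 times. The number of arrays limits these counts.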

Other observations

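Genes outside the groups described so far were called singly. Among 12 genes of stem and progenitor cells 3 rose (25%, against 8.8% of all genes) and none fell (against 8.49%). Cd93, a receptor of early progenitors that platelets and endothelium also hold, read 6.14, 5.89, 5.41, 5.33 and 5.36 in the controls and 7.27, 7.43, 6.75 and 7.31 at 1.0 Gy (1.56 ± 0.17). Angpt1, angiopoietin 1, which platelets release, rose by 1.67 ± 0.19, and the third was Slamf1. Kit and Cd34 lay below the filter. Slc25a24, a mitochondrial carrier of ATP and magnesium, rose by 0.96 ± 0.11, while Slc25a39, which brings glutathione into mitochondria, changed by -0.37 ± 0.10. Of 23 NF-kB genes 2 fell (8.7%, near the 8.49% of all genes). They were the mitochondrial superoxide dismutase Sod2 (-0.81 ± 0.12) and Cd83 (-0.70 ± 0.17), a surface protein of activated B and dendritic cells. For Sod2 a dimmer probe set pointed the other way without being called. Of 17 genes of immature granulocytes 1 rose (5.88%, against 8.8% of all genes), which was Syne1 (0.53 ± 0.11). None of 11 genes of endothelium, fibroblasts and liver was called at an adjusted limma p under 0.05, against 17.3% of all genes.

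Genes with strong differences between 3.0 and 1.0 Gy included some that were not called at 1.0 Gy against control. Dock10, a regulator of small GTPases in lymphocytes, differed by -3.00 ± 0.22 between 3.0 and 1.0 Gy and by 0.16 ± 0.21 between 1.0 Gy and control. Lst1, a gene of leukocytes, differed by 1.03 ± 0.15 and -0.20 ± 0.14 in the same order.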
